A study of Drosophila melanogaster with 8 samples.

Results

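The 26S proteasome is built from the products of a set of genes that FlyBase names Prosalpha, Prosbeta, Rpn and Rpt. The genes described here are those whose FlyBase symbol starts with one of these names followed by a number. Of 17713 genes in the count table, 48 met this rule. By role, 32 were subunit genes of the proteasome that all cells use: 7 of the alpha ring and 7 of the beta ring of the 20S core, and 10 of the base and 8 of the lid of the 19S regulatory particle. The other 16 were paralogs whose symbols end in R or T, among them the testis paralogs. The rule uses the symbol and no value of the libraries, but it was chosen with earlier results of these data known.

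The proteasome degrades proteins that carry ubiquitin chains. Its 20S core is a barrel of stacked rings: the outer alpha rings gate the entrance and the inner beta rings hold the protease sites, in the subunits beta1, beta2 and beta5. The 19S particle caps the barrel, and in it the ATPases Rpt1 to Rpt6 unfold substrates, Rpn1, Rpn10 and Rpn13 bind ubiquitin, and the lid subunit Rpn11 removes the chains. Pngl is the fly homolog of NGLY1, which removes N-glycans from proteins in the cytosol. In mammals, NGLY1 is needed for full activity of NFE2L1, a transcription factor of proteasome genes whose fly homolog is Cnc.

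RNA was sequenced from midguts of larvae in the third instar, males and females mixed, at 96 hours after egg laying, in 4 genotypes of 2 libraries each. The labels give y w for all 4 genotypes. Larvae labelled Pngl-/- were homozygous for the mutant allele Pngl[ex14]. Pngl Dp/+ larvae were homozygous for the same allele and had 1 copy of a genomic duplication of Pngl, given in the labels as the rescue transgene PBac{Pngl[wt]Ch322-3O13}VK27. Pngl+/- larvae carried Pngl[ex14] over a CyO balancer chromosome with Kr>GFP, which the labels give for no other genotype. The y w larvae were wild type for Pngl. Midguts were pooled, 40 per genotype by the labels, and the methods of the study give a different number and another insertion site for the duplication. The methods describe the libraries of a genotype as biological replicates.

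Each library held 20414011 to 28382919 counts on genes, and the libraries of a genotype differed by more than sampling noise. All 7 enterocyte markers were detected in every library. Pngl itself (chromosome 2R, from 6017739 to 6020695) had 58.3 and 56.7 CPM in the libraries labelled Pngl-/-, 21.1 and 20.7 CPM in Pngl Dp/+, 45.0 and 41.5 CPM in Pngl+/-, and 33.6 and 31.4 CPM in y w. CPM are counts scaled to the depth of the library on the tested genes and by the TMM factors of edgeR, which correct for a few genes taking a large share of a library. All control libraries thus held less Pngl mRNA than those labelled Pngl-/-. Its level does not check the labels of these libraries, which are therefore called by their label throughout.

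All 32 subunit genes of the 20S core and the 19S particle had lower mRNA in the libraries labelled Pngl-/- than in each of the 3 controls. The median log2 fold change was -0.99 against Pngl Dp/+, -1.13 against Pngl+/- and -0.96 against y w, while the medians over all 7665 tested genes were -0.02, -0.05 and -0.01. A gene was called where its fold change was at least 1.5 and its p, from the quasi-likelihood test of edgeR and adjusted over all genes, at most 0.05. By these limits 31 of 32 were called lower against Pngl Dp/+, 32 of 32 against Pngl+/- and 31 of 32 against y w, and none was called higher. Over all tested genes, 22.2%, 13.1% and 24.4% were called lower in these comparisons. The gene not called against Pngl Dp/+ and y w was Prosalpha1.

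Against all 3 controls at once, 31 of 32 subunit genes were called lower, beside 8.51% of all tested genes, and none was called higher, beside 4.03%. The 3 comparisons share the libraries labelled Pngl-/-, so they are not independent of each other. For each of the 32 genes both of these libraries lay below all 6 control libraries, which was so for 28% of all tested genes. The standard error of the log2 fold change was at most 0.07 for any subunit gene, and the largest adjusted p was 5.88e-08. Prosalpha1 aside, the fall was 1.70- to 2.59-fold against Pngl Dp/+, 1.82- to 2.79-fold against Pngl+/- and 1.67- to 3.38-fold against y w.

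Together the subunit genes took 0.136% and 0.140% of all counts in the libraries labelled Pngl-/-, against 0.341% and 0.339% in Pngl Dp/+, 0.302% and 0.309% in Pngl+/- and 0.365% and 0.361% in y w. No gene of these 32 was near the limit of detection: the fewest counts of any in any library were 547 and the lowest level was 28.5 CPM. Dissected midguts hold several cell types, and in whole tissue fewer cells of a type and less RNA per cell cannot be told apart. Markers of other tissues moved with the genotypes. The summed level of 6 fat body markers was 24467 to 24541 CPM in the libraries labelled Pngl-/-, 33241 to 34494 CPM in Pngl Dp/+, 50719 to 52959 CPM in Pngl+/- and 30044 to 30406 CPM in y w. The sum of 5 haemocyte markers was 116 to 118 CPM in the libraries labelled Pngl-/-, also below its range in every control. The 6 salivary gland markers summed to 3442 to 3533 CPM in the libraries labelled Pngl-/-, below 3633 to 3706 CPM in y w and the higher sums of the other controls. The 3 Malpighian tubule markers summed to 134 to 140.3 CPM in the libraries labelled Pngl-/-, above every control (56.9 to 119.7 CPM). Most of it was Uro (112 and 105 CPM), the only marker of the list above every control library. Irk3 was lower than in Pngl Dp/+, higher than in Pngl+/- and overlapped y w. Best2 overlapped Pngl Dp/+ and was higher than in Pngl+/- and y w. The sum of 4 visceral muscle markers was 3177 to 3239 CPM in the libraries labelled Pngl-/-, 5845 to 5900 CPM in Pngl Dp/+, 3128 to 3154 CPM in Pngl+/- and 5681 to 5845 CPM in y w, while the 7 enterocyte markers summed to 33525 to 35166 CPM in the libraries labelled Pngl-/-, above those of Pngl Dp/+ and y w and below those of Pngl+/-. Most of that sum was Jon65Aiv, which like betaTry was lower than in Pngl+/-. The other markers, Myo31DF, Amy-p, Amy-d, LManV and Mal-A1, were higher than in Pngl+/-. Amy-p had 1889 and 1722 CPM in the libraries labelled Pngl-/-, against 152 and 169 CPM in Pngl+/-. BetaTry was also lower than in Pngl Dp/+ (7106 and 6884.5 against 7879 and 7347 CPM). Jon65Aiv overlapped Pngl Dp/+ and y w, and the remaining enterocyte values were higher than in these controls. Of the muscle markers, Mhc was lower than in Pngl+/- (206 and 205 against 291 and 298 CPM). Mlc2 and Act57B were higher than in Pngl+/-, and up overlapped it. Other sums hid such markers too. Against y w, the salivary gland markers Sgs5, Sgs7 and Sgs8 were higher in the libraries labelled Pngl-/-. The haemocyte markers NimC1 and PPO2 and the fat body marker Lsp1gamma were higher as well. The remaining salivary gland, haemocyte and fat body markers were lower than in y w. The part of these tissues in the result was not tested.

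**Figure D1:**
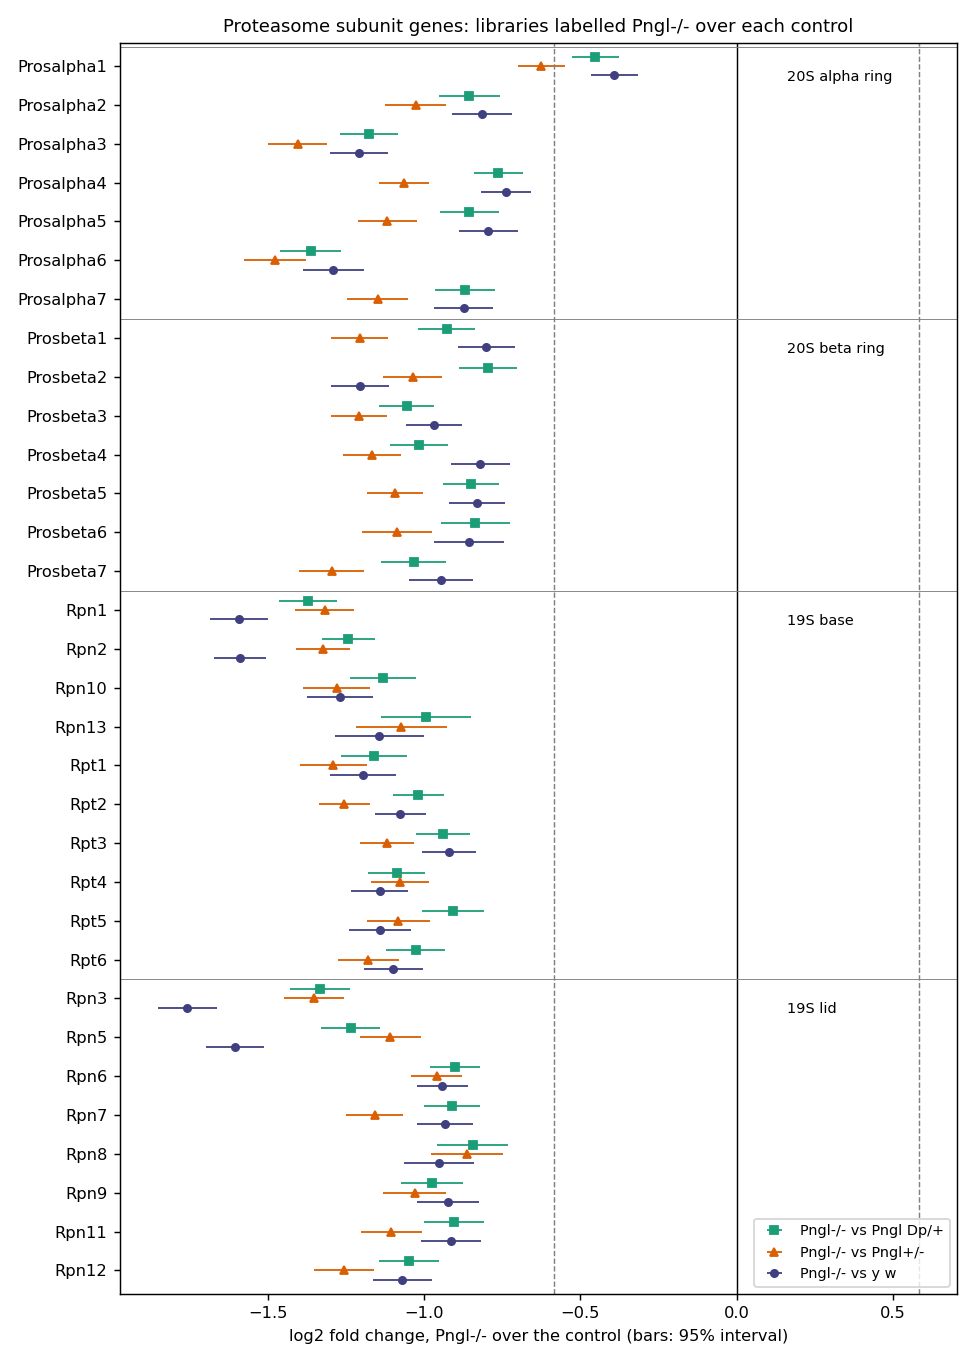
Log2 fold change of the 32 subunit genes in the libraries labelled Pngl-/- over each control, with 95% intervals, genes grouped by their place in the proteasome. Dashed lines mark a fold change of 1.5. All points lie left of 0, and Prosalpha1 is the gene nearest to 0 in each comparison.

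The alpha ring, which lets substrates into the core, had both the largest and the smallest mean fall of the 20S genes. Its median log2 fold change was -0.86 against Pngl Dp/+, -1.12 against Pngl+/- and -0.81 against y w over 7 genes. Prosalpha6 (chromosome 2L, from 10221351 to 10222546) had 40.1 and 39.1 CPM in the libraries labelled Pngl-/-, 100.1 and 104 CPM in Pngl Dp/+, 114 and 107 CPM in Pngl+/-, and 98.5 and 95.4 CPM in y w. The control libraries lay close together and far above. The log2 fold change was -1.36 ± 0.05 (SE) against Pngl Dp/+, -1.48 ± 0.05 against Pngl+/- and -1.29 ± 0.05 against y w, with adjusted p of at most 1.14e-12. Prosalpha3 followed, with -1.18, -1.40 and -1.21 in the same order, and the values of Prosalpha2, Prosalpha4, Prosalpha5 and Prosalpha7 lay between -1.15 and -0.74.

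Prosalpha1 (chromosome 2R, from 7827303 to 7828678) was the exception among the subunit genes. It had 136 and 140 CPM in the libraries labelled Pngl-/-, 191 and 188 CPM in Pngl Dp/+, 212 and 214 CPM in Pngl+/-, and 184 and 179 CPM in y w. The levels of the genotypes did not overlap, but they lay nearer to each other than for any other subunit gene. The log2 fold change of -0.45 ± 0.03 against Pngl Dp/+ and -0.39 ± 0.04 against y w passed on adjusted p (1.4e-08 and 5.88e-08) and was under the limit of 1.5-fold. Against Pngl+/- it was -0.62 ± 0.04 and was called. That call was lost without either y w library or either Pngl Dp/+ library, where the log2 fold change was -0.58.

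The count of Prosalpha1 is not that of a gene of its own. Its paralog Prosalpha1R lies 1734 bases away on the same arm and strand (from 7830413 to 7831771), and the counts of both genes differed by at most 10 in every library, with 2616 for each in the first of the libraries labelled Pngl-/-. Of the 16 paralogs, Prosalpha1R alone passed the filter on low counts, and its log2 fold changes of -0.45, -0.62 and -0.39 against Pngl Dp/+, Pngl+/- and y w equal those of Prosalpha1. How reads with several alignments were counted is not given in the sources used here, so the genes cannot be told apart and the values of either are uncertain. Prosalpha1R is not counted among the 32.

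The 7 beta ring genes changed by closer amounts, with a median of -0.93 against Pngl Dp/+, -1.17 against Pngl+/- and -0.86 against y w. Among them are the genes for the protease subunits. Prosbeta1 (chromosome 2R, from 16013805 to 16014787), whose homologs in yeast and mammals cut after acidic residues, had 45.4 and 44.9 CPM in the libraries labelled Pngl-/-, 84.9 and 86.7 CPM in Pngl Dp/+, 103 and 105 CPM in Pngl+/-, and 76.8 and 80.3 CPM in y w. Its log2 fold change was -0.93 ± 0.04 against Pngl Dp/+, -1.21 ± 0.04 against Pngl+/- and -0.80 ± 0.04 against y w, with adjusted p of at most 1.26e-10. The gene was highest in both Pngl+/- libraries, and the other controls lay between.

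Prosbeta2 (chromosome 3L, from 14999951 to 15001319), the homolog of the subunit that cuts after basic residues, had 42.3 and 41.6 CPM in the libraries labelled Pngl-/-, 70.6 and 74.8 CPM in Pngl Dp/+, 86.0 and 86.2 CPM in Pngl+/-, and 97.3 and 96.1 CPM in y w. In contrast to Prosbeta1 it was highest in both y w libraries. Its log2 fold change was -0.80 ± 0.04 against Pngl Dp/+, -1.04 ± 0.04 against Pngl+/- and -1.21 ± 0.04 against y w, with adjusted p of at most 2.61e-10. Prosbeta5 (chromosome 2R, from 10819978 to 10821178), which in yeast and mammals cuts after hydrophobic residues, had 66.6 and 71.4 CPM in the libraries labelled Pngl-/-, 123 and 125 CPM in Pngl Dp/+, 149 and 145 CPM in Pngl+/-, and 121 and 125 CPM in y w. Its changes of -0.85 ± 0.04, -1.09 ± 0.04 and -0.83 ± 0.04 in the same order gave the smallest mean fall of the ring, -0.92.

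Prosbeta7 (chromosome 3R, from 5357012 to 5358364), a structural beta subunit, had the largest mean fall of the ring, -1.09. It had 49.5 and 52.5 CPM in the libraries labelled Pngl-/-, 107 and 102 CPM in Pngl Dp/+, 121 and 130.2 CPM in Pngl+/-, and 98.7 and 97.9 CPM in y w. The log2 fold change was -1.03 ± 0.05 against Pngl Dp/+, -1.30 ± 0.05 against Pngl+/- and -0.95 ± 0.05 against y w, with adjusted p of at most 7.63e-11. Between the smallest and the largest mean of the ring the difference was small beside that of the alpha ring, where the means of Prosalpha6 and Prosalpha1 were -1.38 and -0.49.

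The base of the 19S particle had the lowest class medians against Pngl Dp/+, Pngl+/- and y w, at -1.06, -1.22 and -1.14 over 10 genes. Rpn1 (chromosome 3L, from 19915051 to 19918160), a scaffold of the base that docks ubiquitin and shuttle factors, had 38.7 and 40.8 CPM in the libraries labelled Pngl-/-, 103 and 102 CPM in Pngl Dp/+, 96.9 and 101 CPM in Pngl+/-, and 119 and 121 CPM in y w. Every control library was far above both libraries labelled Pngl-/-, and y w was highest. The log2 fold change was -1.37 ± 0.04 against Pngl Dp/+, -1.32 ± 0.04 against Pngl+/- and -1.59 ± 0.04 against y w, with adjusted p of at most 1.24e-12. Rpn2, the other large scaffold of the base, changed by -1.24, -1.32 and -1.59.

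The 6 ATPase genes of the base, Rpt1 to Rpt6, fell together. Their log2 fold changes lay between -1.16 and -0.91 against Pngl Dp/+, between -1.29 and -1.08 against Pngl+/- and between -1.19 and -0.92 against y w. Rpt3 (chromosome X, from 11125101 to 11126785) fell least by the mean, with 52.6 and 53.2 CPM in the libraries labelled Pngl-/-, 101 and 102 CPM in Pngl Dp/+, 113 and 117 CPM in Pngl+/-, and 98.1 and 102 CPM in y w. Its log2 fold change was -0.94 ± 0.04 against Pngl Dp/+, -1.12 ± 0.04 against Pngl+/- and -0.92 ± 0.04 against y w, with adjusted p of at most 1.45e-11. The ubiquitin receptor genes changed by -1.13, -1.28 and -1.27 for Rpn10 and by -0.995, -1.07 and -1.14 for Rpn13, against Pngl Dp/+, Pngl+/- and y w.

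The lid, which holds the deubiquitinase Rpn11 and the scaffold subunits around it, had medians of -0.94 against Pngl Dp/+, -1.11 against Pngl+/- and -0.95 against y w over 8 genes. Rpn3 (chromosome 2L, from 19051790 to 19053681), a scaffold subunit, had the lowest mean log2 fold change of the 32 genes, -1.48. It had 28.5 and 28.9 CPM in the libraries labelled Pngl-/-, 72.1 and 72.3 CPM in Pngl Dp/+, 71.9 and 74.5 CPM in Pngl+/-, and 96.4 and 97.6 CPM in y w. Pngl Dp/+ and Pngl+/- overlapped each other, below y w and far above the libraries labelled Pngl-/-. The log2 fold change was -1.33 ± 0.04 against Pngl Dp/+, -1.35 ± 0.05 against Pngl+/- and -1.76 ± 0.04 against y w, with adjusted p of at most 1.28e-12.

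Rpn5, another scaffold subunit of the lid, changed by -1.23, -1.11 and -1.60 against Pngl Dp/+, Pngl+/- and y w. Rpn8 (chromosome 2R, from 24400028 to 24404527), the partner of Rpn11 in the lid, had the smallest mean fall of the lid genes, -0.89. Against y w alone, Rpn11 fell least of the lid. It had 35.6 and 32.1 CPM in the libraries labelled Pngl-/-, 60.9 and 60.5 CPM in Pngl Dp/+, 62.3 and 60.6 CPM in Pngl+/-, and 66.4 and 64.4 CPM in y w. The control genotypes lay close together, with y w highest. The log2 fold change was -0.84 ± 0.05 against Pngl Dp/+, -0.86 ± 0.05 against Pngl+/- and -0.95 ± 0.05 against y w, with adjusted p of at most 1.92e-09. Rpn11 itself changed by -0.91, -1.10 and -0.91, and Rpn6, Rpn7, Rpn9 and Rpn12 lay between -1.26 and -0.90.

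**Figure D2:**
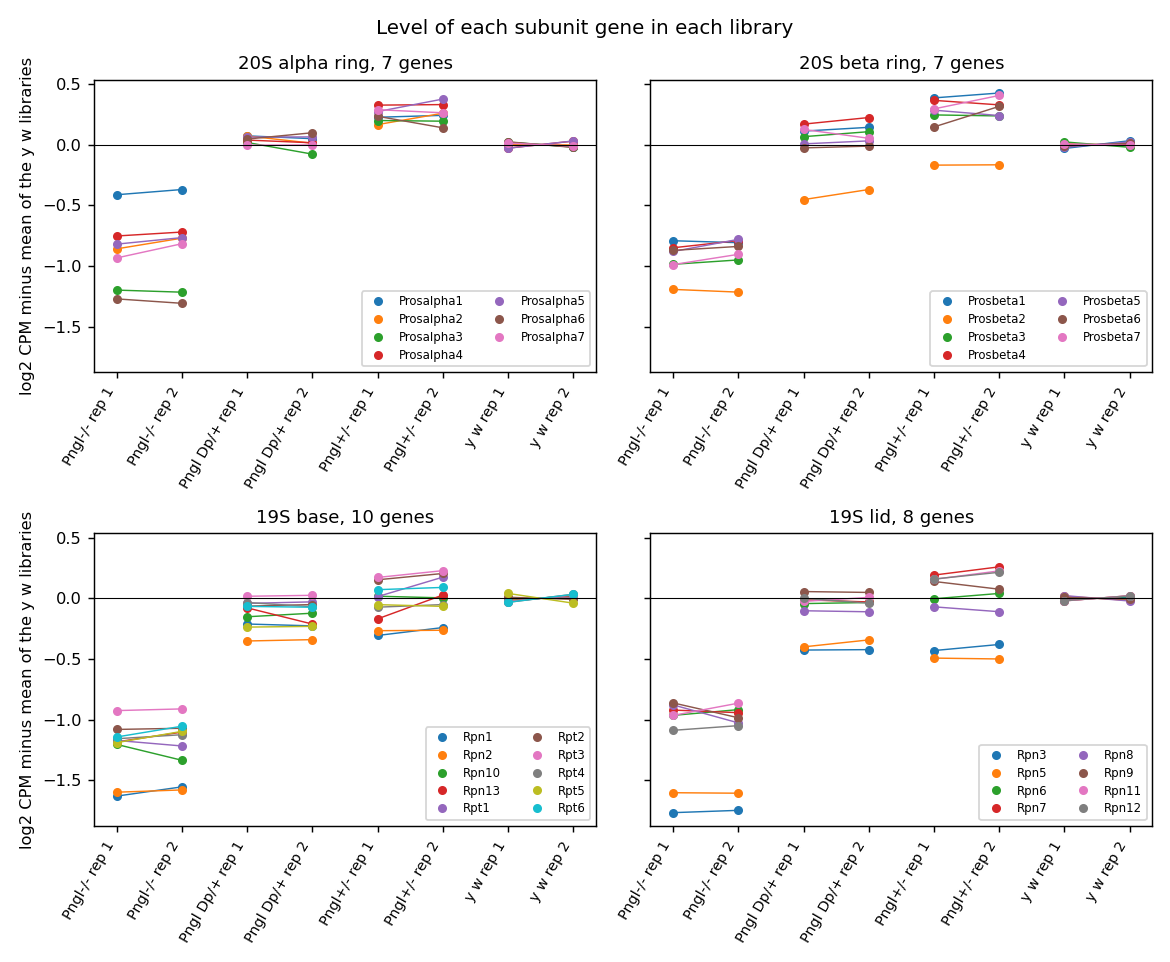
Level of each subunit gene in each library, as log2 CPM minus the mean of the y w libraries for that gene, in 4 panels for the alpha ring, the beta ring, the base and the lid. Each colour is a gene and lines join the libraries of a genotype. The libraries labelled Pngl-/- lie lowest for all 32 genes, and most 20S genes lie above 0 in Pngl+/-, relative to the other genes; without composition normalization the 20S median there was -0.11 and that of all tested genes -0.36.

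Set side by side, the 14 genes of the 20S core had a median log2 fold change of -0.86 against Pngl Dp/+, -1.13 against Pngl+/- and -0.84 against y w, and the 18 genes of the 19S particle had -1.02, -1.14 and -1.12. The particles thus lay apart in the comparison with y w and close together in that with Pngl+/-. The genes spread less against Pngl+/- (SD 0.16 over 32 genes, log2 scale) than against Pngl Dp/+ (SD 0.19) and against y w (SD 0.29). Whether core and cap differ was not tested, because the genes share the same 8 libraries and are not replicates.

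Against Pngl Dp/+ and y w, the larger falls went with longer genes. The exons of the subunit genes spanned 815 bases in Prosbeta4 to 3412 bases in Rpn2. Across the 32 genes, the Pearson correlation of the log2 fold change with log2 exonic length was -0.49 against Pngl Dp/+, -0.15 against Pngl+/- and -0.67 against y w. Over the 7604 tested genes with a length it was -0.37, -0.19 and -0.41, and over the 4695 other genes of 900 to 3500 bases it was -0.17, -0.07 and -0.17. The 16 longer genes (1393 to 3412 bases) had medians of -1.02, -1.14 and -1.14 and the 16 shorter genes (815 to 1215 bases) -0.89, -1.13 and -0.86. All but 2 of the shorter genes belong to the 20S core and all of the longer to the 19S particle, so length and particle cannot be told apart here. The controls also differed by length among themselves. In Pngl+/- against y w the correlation across the 32 genes was -0.74, and in Pngl Dp/+ against y w it was -0.63. In Pngl Dp/+ against Pngl+/- it was 0.66. Over the tested genes with a length these were -0.34, -0.15 and 0.28. The trend with length was thus not particular to the libraries labelled Pngl-/-. These correlations describe genes measured in the same libraries and have no test.

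**Figure D3:**
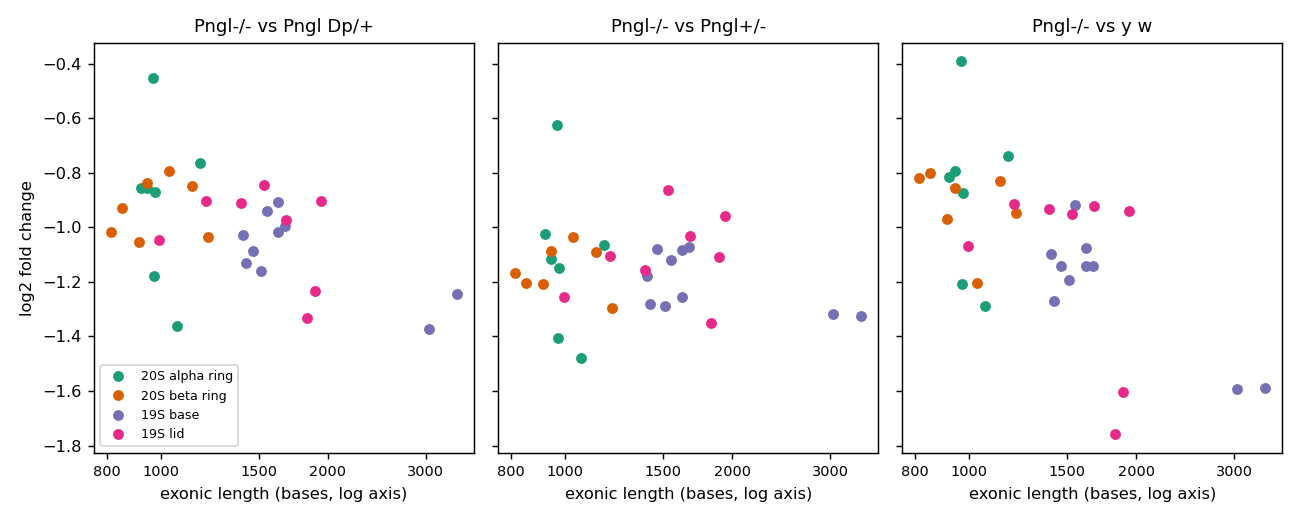
Log2 fold change of the 32 subunit genes (libraries labelled Pngl-/- over each control) against exonic length in bases, on a log axis, with colours for the alpha ring, beta ring, base and lid. Against y w, Rpn3, Rpn5, Rpn1 and Rpn2 lie lowest and are among the longest; against Pngl+/- the correlation with length was -0.15.

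The controls differed among themselves by far less. None of the 32 genes was called in Pngl Dp/+ against Pngl+/-, in Pngl Dp/+ against y w or in Pngl+/- against y w, where 7.91%, 5.68% and 17.5% of all tested genes were called lower and 14.0%, 6.78% and 13.0% higher. On adjusted p alone, at any fold change, differences remained. Between Pngl+/- and y w, 19 subunit genes passed as higher in Pngl+/- and 5 as lower, beside 35.5% and 36.0% of all tested genes. The 20S core had 13 of these higher genes and 1 of the lower ones, Prosbeta2, and its median log2 fold change was 0.25. The largest was that of Prosbeta1, 0.40 with a 95% interval of 0.32 to 0.49. Of the 19S genes, 6 were higher and 4 lower, and their median was 0.01. That median was -0.06 with upper-quartile factors, 0.14 with TMM factors from all genes, and -0.35 without composition normalization, where all 18 passed as lower, so no direction is given for the 19S genes.

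Without composition normalization, which moved all log2 fold changes in Pngl+/- against y w so that the median of all tested genes was -0.36, the median of the 20S genes was -0.11 and none of them passed as higher. The 20S median thus lay above that of all tested genes under both scalings, and its sign turned with the shift of all genes. With the other factors tried the median was 0.18 to 0.38. The summed level of the fat body markers was also highest in Pngl+/-, as given above. So were Lsp1alpha, Lsp1beta, Lsp1gamma and Lsp2, but Fbp1 was lowest there (969 and 984 CPM). Fbp2 had 667 and 663 CPM in Pngl+/-, below Pngl Dp/+ and y w. The part of these markers in the result was not tested. The mean level was highest in Pngl+/- for 23 of the 32 genes and in y w for 9, and the libraries labelled Pngl-/- had the lowest mean for all 32. Over all tested genes these shares were 21.7% for Pngl+/- highest and 36.3% for Pngl-/- lowest.

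Prosbeta2, Rpn1, Rpn2, Rpn3 and Rpn5 stood out among the controls by a high level in y w. Against y w the log2 fold change of Rpn5 was -0.37 in Pngl Dp/+ and -0.50 in Pngl+/-, with 95% intervals of -0.45 to -0.29 and -0.58 to -0.41. That of Rpn3 was -0.43 and -0.41, of Prosbeta2 -0.41 and -0.17, of Rpn2 -0.35 and -0.27 and of Rpn1 -0.22 and -0.27. All passed on adjusted p, from edgeR, at 0.00177 or less, and none reached 1.5-fold. Both comparisons use the same y w libraries. Without composition normalization, Rpn1, Rpn2, Rpn3 and Rpn5 passed both limits of a call in Pngl+/- against y w, as lower. Between Pngl Dp/+ and y w, 2 passed as higher and 7 as lower on adjusted p alone (27.4% and 25.2% of all tested genes), with a median of -0.02, which was 0.02 with TMM factors from all genes. In Pngl Dp/+ against Pngl+/-, 1 was higher and 23 lower (32.7% and 31.3% of all tested genes), with a median of -0.17. Without composition normalization this median was 0.15 and that of all tested genes 0.32, so the subunit genes lay below the other genes under both scalings.

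Levels of different genes were compared as RPKM, the CPM per kilobase of exonic length. The median over the 32 genes was 36.1 and 36.1 RPKM in the libraries labelled Pngl-/-, 72.1 and 72.8 RPKM in Pngl Dp/+, 83.2 and 85.3 RPKM in Pngl+/-, and 76.3 and 77.2 RPKM in y w. Prosalpha1 was highest and Rpn2 lowest in every library. Prosalpha1 averaged 143 RPKM in the libraries labelled Pngl-/-, 195 in Pngl Dp/+, 220.1 in Pngl+/- and 187 in y w, with the doubt about its reads given above. Rpn2 averaged 11.6 RPKM in the libraries labelled Pngl-/-, 27.6 in Pngl Dp/+, 29.1 in Pngl+/- and 35.0 in y w. The ratio of the highest to the lowest gene was 12.2 and 12.4 in the libraries labelled Pngl-/-, 7.17 and 7.0 in Pngl Dp/+, 7.52 and 7.58 in Pngl+/- and 5.46 and 5.23 in y w. This ratio rests on Prosalpha1. The SD of log2 RPKM over the 32 genes was 0.76 and 0.78 in the libraries labelled Pngl-/-, 0.64 and 0.64 in Pngl Dp/+, 0.72 and 0.72 in Pngl+/-, and 0.54 and 0.54 in y w, a smaller difference from Pngl+/- than the ratio gave.

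The subunit genes lie on the 5 large chromosome arms, 4 on 2L, 10 on 2R, 5 on 3L, 9 on 3R and 4 on X. Against y w, the medians by arm ran from -1.21 on 3L to -0.91 on 2R. Of the 48 genes, 16 share exonic bases with another gene, on the opposite strand except for Prosbeta4R2, and the largest share was that of Rpt6 with CG1801, 182 bases or 13.0% of its exons. The library kit kept the strand, but whether the counting used it is not given in the sources used here.

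The remaining 15 paralogs were almost silent in these midguts, and least present in the libraries labelled Pngl-/-. Paralogs of this kind encode variants of a subunit, several of them made in the male germ line. Their summed counts were 12 and 8 in the libraries labelled Pngl-/-, 143 and 192 in Pngl Dp/+, 60 and 45 in Pngl+/-, and 223 and 229 in y w. As normalised levels these sums were 0.625 and 0.397 CPM, against 6.32 and 6.12, 2.84 and 2.41, and 9.37 and 8.25 CPM, in the same order of genotypes. All 15 were under the filter of 5 CPM in at least 2 libraries, and 12 had no count in either library labelled Pngl-/-. For 11 of the 15, both of these libraries lay below all 6 control libraries. The share among the tested genes, 28%, is over genes that passed the filter, and no share is given for genes under it.

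Rpt3R, a paralog of the ATPase gene Rpt3, had the highest counts, 8 and 8 in the libraries labelled Pngl-/-, 34 and 39 in Pngl Dp/+, 13 and 11 in Pngl+/-, and 51 and 50 in y w. Rpt6R had 0 and 0 in the libraries labelled Pngl-/-, 22 and 43 in Pngl Dp/+, 10 and 6 in Pngl+/-, and 39 and 40 in y w. With a floor of 3 counts per library in the libraries labelled Pngl-/-, its level there was lower than that of y w by at least 9.86-fold. Rpt4R, with 0 and 0 in the libraries labelled Pngl-/-, 18 and 18 in Pngl Dp/+, 3 and 4 in Pngl+/-, and 30 and 24 in y w, was lower by at least 6.8-fold against y w. Rpn12R, with 0 and 0, 18 and 22, 6 and 5, and 25 and 25 in that order of genotypes, was lower by at least 6.25-fold against y w. Such floors cover counting error only. Against Pngl+/- the bounds of these genes were far smaller, 2.54-, 1.14- and 1.77-fold.

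The other paralogs with 10 or more counts in any library were lower still. Prosbeta2R2 had 2 and 0 counts in the libraries labelled Pngl-/-, 6 and 12 in Pngl Dp/+, 3 and 4 in Pngl+/-, and 18 and 11 in y w. Prosbeta4R1 had 2 and 0 counts in the libraries labelled Pngl-/-, 10 and 5 in Pngl Dp/+, 5 and 1 in Pngl+/-, and 9 and 6 in y w. Prosbeta4R2 had 0 and 0 counts in the libraries labelled Pngl-/-, 6 and 7 in Pngl Dp/+, 2 and 4 in Pngl+/-, and 7 and 12 in y w. These are paralogs of beta ring genes, and the last had no count in either library labelled Pngl-/-. Prosbeta5R2 had 0 and 0 counts in the libraries labelled Pngl-/-, 2 and 4 in Pngl Dp/+, 3 and 0 in Pngl+/-, and 10 and 15 in y w. Prosalpha6T had 0 and 0 counts in the libraries labelled Pngl-/-, 6 and 6 in Pngl Dp/+, 2 and 1 in Pngl+/-, and 5 and 12 in y w. Prosalpha4T2 had 0 and 0 counts in the libraries labelled Pngl-/-, 4 and 9 in Pngl Dp/+, 5 and 3 in Pngl+/-, and 3 and 10 in y w. None of these 3 had a count in the libraries labelled Pngl-/-, and their counts in Pngl+/- were few as well. The other 5 had at most 7 counts in any library. Looser filters admitted them only through their level in the controls, so no calls are given for them.

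Testis markers ran in the same order. In all, 10 testis genes, among them betaTub85D and dj, summed to 0.208 and 0.199 CPM in the libraries labelled Pngl-/-, 13.0 and 13.4 CPM in Pngl Dp/+, 5.15 and 6.06 CPM in Pngl+/-, and 15.96 and 15.5 CPM in y w. Of these 10, 6 had no count in either library labelled Pngl-/-. As with the paralogs, none of the 10 passed the filter, and their part in the low paralog counts was not tested.

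**Figure D4:**
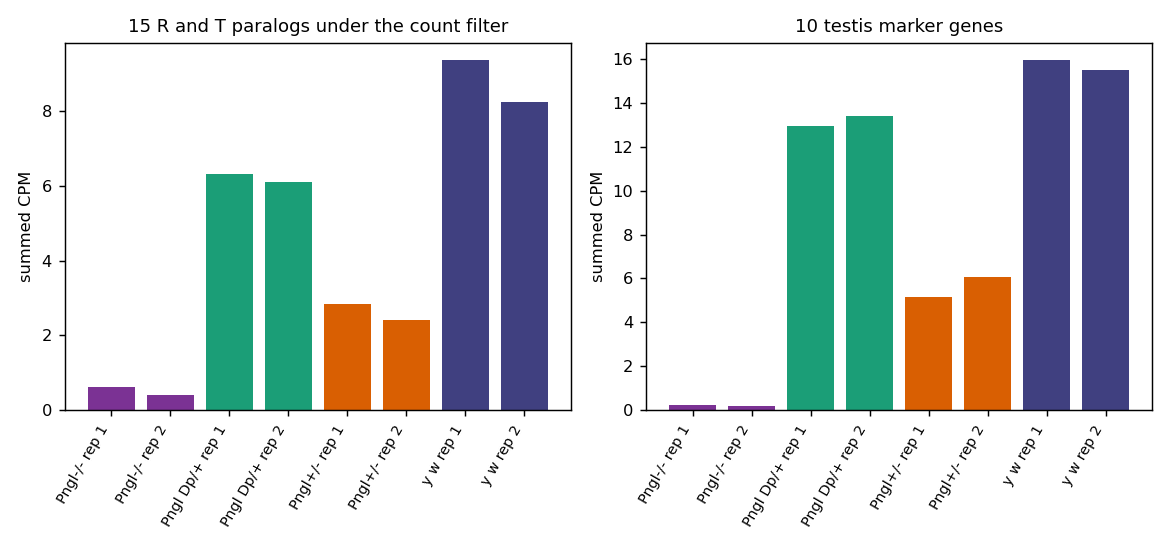
Summed CPM in each library of the 15 paralogs under the count filter (left) and of the 10 testis marker genes (right), 1 bar per library. Both sums are near 0 in the libraries labelled Pngl-/-, low in Pngl+/-, and highest in y w.

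Other genes that act with the proteasome changed less uniformly. Of 17 such genes, 7 were called against Pngl Dp/+ (6 lower, 1 higher), 7 against Pngl+/- (6 lower, 1 higher) and 5 against y w (all lower). Over all tested genes, 22.2%, 13.1% and 24.4% were called lower and 12.1%, 7.58% and 17.9% higher, so the 29.4% of these genes called lower against y w was near the share of all genes. Their medians were -0.43, -0.36 and -0.28. Sem1, Pomp, Usp14 and TER94 were called lower in all 3 comparisons. Sem1, a small subunit of the lid whose name is not covered by the rule, had 30.3 and 32.7 CPM in the libraries labelled Pngl-/-, 57.0 and 58.8 CPM in Pngl Dp/+, 67.3 and 61.1 CPM in Pngl+/-, and 56.0 and 51.1 CPM in y w. Its log2 fold changes were -0.88, -1.03 and -0.76. With TMM factors from all genes that against y w was -0.56, under the limit. Pomp, the chaperone that matures the 20S core, had 30.8 and 30.6 CPM in the libraries labelled Pngl-/-, 67.8 and 64.3 CPM in Pngl Dp/+, 82.0 and 90.0 CPM in Pngl+/-, and 63.4 and 67.2 CPM in y w. Its log2 fold changes of -1.10, -1.49 and -1.09 lay among those of the subunit genes.

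Usp14, a deubiquitinase that docks on the 19S base, had 22.9 and 23.6 CPM in the libraries labelled Pngl-/-, 56.4 and 58.2 CPM in Pngl Dp/+, 58.8 and 58.9 CPM in Pngl+/-, and 69.2 and 67.9 CPM in y w. Its log2 fold changes of -1.30, -1.34 and -1.56 were the lowest of the 17 against Pngl Dp/+ and y w. TER94, the fly p97 ATPase that pulls ubiquitylated proteins out of complexes and membranes, had 128 and 126 CPM in the libraries labelled Pngl-/-, 247 and 259 CPM in Pngl Dp/+, 275 and 272 CPM in Pngl+/-, and 248.5 and 250.5 CPM in y w. It changed by -0.99, -1.10 and -0.97. Its cofactor Npl4 had 23.1 and 23.7 CPM in the libraries labelled Pngl-/-, 29.2 and 29.1 CPM in Pngl Dp/+, 31.7 and 34.8 CPM in Pngl+/-, and 30.3 and 31.7 CPM in y w. The partner Ufd1 had 23.5 and 22.5 CPM in the libraries labelled Pngl-/-, 27.98 and 28.01 CPM in Pngl Dp/+, 29.4 and 29.5 CPM in Pngl+/-, and 26.8 and 27.4 CPM in y w. Neither was called, with -0.32, -0.50 and -0.41 for Npl4 and -0.29, -0.36 and -0.24 for Ufd1. The cofactor p47 differed in Pngl+/- rather than in the libraries labelled Pngl-/-: it had 34.9 and 32.5 CPM in the libraries labelled Pngl-/-, 46.1 and 44.9 CPM in Pngl Dp/+, 149.95 and 153 CPM in Pngl+/-, and 36.9 and 40.1 CPM in y w. Its log2 fold changes were -0.43, -2.17 and -0.19, and in Pngl+/- against y w it was 1.97 (95% interval 1.87 to 2.08).

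Factors that bring substrates or modify the particle mostly stayed under the limits. Rad23, a shuttle of ubiquitylated proteins, had 44.5 and 41.1 CPM in the libraries labelled Pngl-/-, 63.3 and 65.0 CPM in Pngl Dp/+, 70.6 and 63.2 CPM in Pngl+/-, and 63.9 and 63.1 CPM in y w. Its log2 fold changes of -0.59, -0.65 and -0.57 lay near the limit of 1.5-fold, and it was called against Pngl Dp/+ and Pngl+/-. Both calls were lost with TMM factors from all genes (-0.43 and -0.57), with the looser filters and in the test against 1.5-fold. With DESeq2, RLE factors or upper-quartile factors, only that against Pngl Dp/+ was lost (-0.58 to -0.56). Rad23 was called against y w with upper-quartile factors (-0.64) and without composition normalization (-0.96). The call against Pngl Dp/+ was lost without any 1 of the y w or Pngl Dp/+ libraries or the second of the libraries labelled Pngl-/- (-0.56 to -0.52), and that against Pngl+/- without the first Pngl+/- library (-0.57). Without the first of the libraries labelled Pngl-/-, Rad23 was called against y w (-0.63).

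CG8858, the homolog of the yeast factor Ecm29 that ties core to cap, had 7.34 and 8.64 CPM in the libraries labelled Pngl-/-, 13.0 and 14.3 CPM in Pngl Dp/+, 10.3 and 8.96 CPM in Pngl+/-, and 19.7 and 19.97 CPM in y w. It was called against Pngl Dp/+ (-0.77) and y w (-1.31) but not against Pngl+/- (-0.28), and was itself lower in Pngl+/- than in y w (-1.03). Uch-L5, another deubiquitinase of the 19S particle, had 24.99 and 25.3 CPM in the libraries labelled Pngl-/-, 38.1 and 36.9 CPM in Pngl Dp/+, 35.4 and 36.4 CPM in Pngl+/-, and 34.1 and 32.0 CPM in y w. Its changes of -0.58, -0.51 and -0.39 were just under the limit of 1.5-fold or further from it.

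The shuttle gene Ubqn had 74.7 and 71.9 CPM in the libraries labelled Pngl-/-, 81.5 and 83.5 CPM in Pngl Dp/+, 84.1 and 86.9 CPM in Pngl+/-, and 68.1 and 76.1 CPM in y w. The shuttle gene rngo had 40.98 and 37.9 CPM in the libraries labelled Pngl-/-, 46.3 and 43.4 CPM in Pngl Dp/+, 37.1 and 37.9 CPM in Pngl+/-, and 42.3 and 39.6 CPM in y w. Neither was called. The core regulator gene PI31 had 29.0 and 27.7 CPM in the libraries labelled Pngl-/-, 29.6 and 30.1 CPM in Pngl Dp/+, 33.6 and 32.5 CPM in Pngl+/-, and 29.1 and 30.9 CPM in y w. REG, for a nuclear activator of the core, had 76.6 and 77.9 CPM in the libraries labelled Pngl-/-, 60.6 and 60.2 CPM in Pngl Dp/+, 71.5 and 71.0 CPM in Pngl+/-, and 73.1 and 72.1 CPM in y w. REG was highest in the libraries labelled Pngl-/- and passed on adjusted p, with fold changes under 1.5, against Pngl Dp/+ (0.35), Pngl+/- (0.12) and y w (0.09). Without composition normalization its value against y w was -0.30. On adjusted p alone, 3 of the 17 genes were higher and 13 lower against Pngl Dp/+, 4 and 11 against Pngl+/-, and 3 and 11 against y w. Over all tested genes these shares were 35.2% and 38.8%, 26.2% and 33.5%, and 38.9% and 39.5%.

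The gene of the transcription factor Cnc was not called in any of the 3 comparisons, but was called lower without composition normalization against Pngl Dp/+ (-0.81) and y w (-0.66). The gene cnc had 101 and 102 CPM in the libraries labelled Pngl-/-, 139 and 142 CPM in Pngl Dp/+, 93.8 and 93.8 CPM in Pngl+/-, and 126 and 120.4 CPM in y w. The libraries labelled Pngl-/- lay above Pngl+/- and below the other controls, with log2 fold changes of -0.47 against Pngl Dp/+, 0.12 against Pngl+/- and -0.28 against y w, none past 1.5-fold. Its partner maf-S had 30.9 and 33.5 CPM in the libraries labelled Pngl-/-, 26.9 and 26.7 CPM in Pngl Dp/+, 27.4 and 23.2 CPM in Pngl+/-, and 24.8 and 24.7 CPM in y w. The log2 fold changes of maf-S were 0.27, 0.34 and 0.38, none past 1.5-fold. Without composition normalization those against Pngl Dp/+ and y w were -0.08 and -0.003. With TMM factors from all genes or no filter on low counts, that against y w was 0.59, and maf-S was called higher. Keap1, the inhibitor that holds Cnc in check, had 15.8 and 14.9 CPM in the libraries labelled Pngl-/-, 9.19 and 8.22 CPM in Pngl Dp/+, 6.90 and 7.83 CPM in Pngl+/-, and 9.66 and 11.1 CPM in y w. It was called higher against Pngl Dp/+ (0.83 ± 0.10) and Pngl+/- (1.06 ± 0.11) and was 0.55 ± 0.10 against y w, where it passed on adjusted p (7.95e-05, edgeR) with a fold change under 1.5. Keap1 was called against y w without either Pngl Dp/+ library, without the second y w library (0.70) or without the second of the libraries labelled Pngl-/-. The same call was made with TMM factors from all genes (0.76) and with the looser filters (0.69 and 0.76).

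**Figure D5:**
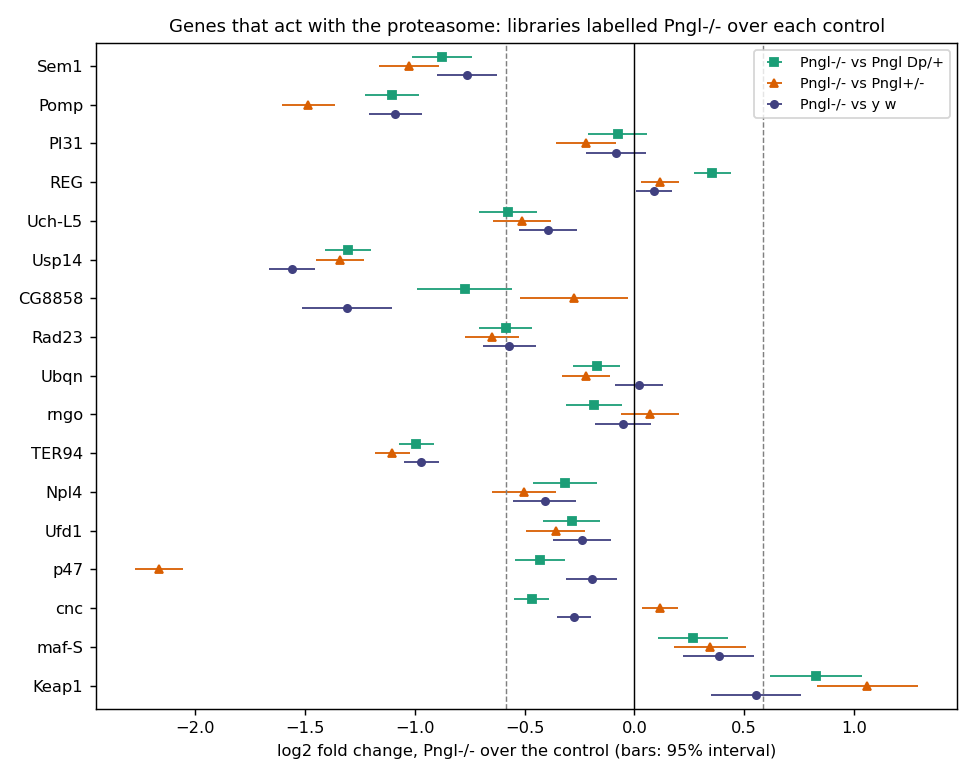
Log2 fold change of the 17 genes that act with the proteasome, in the libraries labelled Pngl-/- over each control, with 95% intervals; dashed lines mark a fold change of 1.5. Sem1, Pomp, Usp14 and TER94 lie left of the dashed line in all 3 comparisons, and Keap1 lies to the right of 0.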

How the data were processed

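Total RNA of pooled larval midguts was sequenced from both ends in 8 libraries, made with a kit for mRNA that keeps the strand. Per the methods and the submitters' processing notes, reads were trimmed with cutadapt and aligned to dm6 with STAR 2.5.3. The authors deposited raw counts per gene, which number all reads on the merged exons of a gene, without normalization or filter. Symbols, positions and exonic lengths came from an Ensembl annotation of the same assembly, which matched 17582 of 17713 gene IDs. The ID of TER94 was named from a gene list of the study, and it has no position or length here.

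From the counts, edgeR 4.0.16 (R 4.3.3) fitted all 8 libraries with 1 mean per genotype. Genes with at least 5 CPM in at least 2 libraries were kept (7665), TMM factors were computed on them, and the quasi-likelihood test was used with Benjamini-Hochberg adjustment over all genes tested. The study used the likelihood ratio test, which is an alternative here. Standard errors and 95% intervals come from the fit, on a common dispersion of 0.00194. With 2 libraries per genotype, the spread is pooled over genotypes. The model was tested on simulated data. Alternatives were the likelihood ratio test, DESeq2 1.42.0, other scaling factors, other filters, leaving out single libraries, a model with replicate number as a block, pairwise fits, and glmTreat at 1.5-fold.

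The members, classes and lists were chosen with earlier results of these data known. Genes given in full were the lowest and highest of each class by mean log2 fold change over the 3 comparisons, subunit genes not called in all 3, the catalytic beta subunits, paralogs with 10 or more counts in any library, and all genes of the list of proteasome-associated genes. The 10 other genes whose profile was nearest are named, the first of them with values. A planned search for promoter motifs was not run.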

Additional observations from a re-analysis of the deposited data

How the results depend on the processing

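The count of subunit genes called lower was 31 to 32 against Pngl Dp/+, 31 to 32 against Pngl+/- and 30 to 32 against y w over all alternatives, and 30 to 32 against all 3 controls. With each library left out in turn it was 31, 31 to 32 and 31. The median log2 fold change ranged from -1.33 to -0.83, from -1.16 to -1.06 and from -1.35 to -0.75, and with a library left out from -0.99 to -0.91, from -1.17 to -1.09 and from -1.003 to -0.91. Leaving out composition normalization moved all log2 fold changes by -0.34, -0.02 and -0.39, and TMM factors from all genes moved them by 0.16, 0.08 and 0.21. Without composition normalization, 4 subunit genes were called in Pngl+/- against y w, the count of associated genes called was 11 against Pngl Dp/+ and 10 against y w, and Prosalpha1 was called against both (-0.79 and -0.78). Prosalpha1 lost its call against Pngl+/- with TMM factors from all genes (-0.55), with the looser filters and in the test against 1.5-fold (adjusted p from edgeR 0.288), and Prosalpha4 lost its call against y w with TMM factors from all genes or no filter (-0.53). Keap1 was not called against Pngl Dp/+ without composition normalization (0.48). With each library left out, associated genes called were 6 to 7, 6 to 7 and 5 to 6, and no subunit gene was called between controls (0 to 0). The replicate block left the counts at 31, 32 and 31 subunit genes and 7, 7 and 5 associated genes. Correlations of same-numbered libraries were -0.20 to 0.38, so the replicate numbers were not taken to pair the samples, and the block changed no count. For single subunit genes and Prosalpha1R, 18 values under alternatives lost a call, 4 gained one and 1859 kept their side. No called value changed sign in the comparisons of the libraries labelled Pngl-/-. Associated genes that were not called did: without composition normalization, maf-S was -0.08 against Pngl Dp/+ and REG -0.30 against y w, and with TMM factors from all genes PI31 was 0.12, rngo 0.15 and p47 0.01 against y w. The signs of Ubqn and rngo against y w also turned without 1 of the libraries. With 2 libraries a genotype, intervals rest on a spread pooled over all 4 genotypes.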

Other observations

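The genes outside the proteasome whose profile over the 8 libraries was nearest to the mean profile of the subunit genes were ranked by Euclidean distance of centred log2 CPM, over 7632 tested genes. TER94 was first, with a distance of 0.120 and a correlation of 0.997, and 6 genes were nearer than the median subunit gene (0.250, range 0.0763 to 0.723). Gbs-76A, for a subunit that targets protein phosphatase to glycogen, came next at 0.1603. It had 8.96 and 9.34 CPM in the libraries labelled Pngl-/-, 18.9 and 19.7 CPM in Pngl Dp/+, 21.9 and 20.2 CPM in Pngl+/-, and 18.6 and 18.9 CPM in y w. MFS17, CG43103, CG11200, Inx3 (a gap junction protein), Ac13E (an adenylate cyclase), CrebA (a transcription factor of secretory pathway genes), CG3408 and CG4408 followed, the last at 0.315. For all 10, both libraries with the label Pngl-/- lay below every control library. They were chosen by this likeness, so their values are a description and have no test.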
